A study of Mus musculus with 11 samples.

Results

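The 10 genes described here are the transcripts by which Fgf signalling is usually read out and restrained in the limb bud: Spry1, Spry2, Spry4, Spred1, Spred2, Dusp6, Il17rd, Etv1, Etv4 and Etv5. They were taken by gene name from a count table of 47517 rows, and all 10 were among the 15821 genes with enough reads to test. RNA-seq libraries came from forelimb buds of C57BL/6 mouse embryos at E10.5. Mutants (6 libraries) were Gmnn f/f; Prx-Cre and controls (5 libraries) were Gmnn +/f; Prx-Cre, from 4 litters called A to D. Both groups therefore carried the Cre transgene and at least 1 floxed Gmnn allele. Gmnn encodes Geminin, an inhibitor of the licensing factor Cdt1, and Prx-Cre is active in limb bud mesenchyme, so that ectoderm, vessels and blood in the same tissue are not its main targets. Embryos of litter A were controls 1 and 2 with mutants 1 and 2, those of litter D control 5 with mutants 3 and 4. Litters B and C each gave a single pair, control 3 with mutant 6 and control 4 with mutant 5. The question was whether Spry2 falls alone in mutants or together with the other Fgf response genes.

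Fgfs made by the apical ectodermal ridge act on receptors of the mesenchyme beneath it and switch on the Ras and Erk kinase cascade there. Erk activity raises transcription of Etv4 and Etv5, Ets-family factors that carry the response into the nucleus, and of a set of inhibitors that damp the same cascade. Sprouty and Spred proteins act between the receptor and Raf, Dusp6 removes phosphate from Erk, and Il17rd (also called Sef) is a membrane protein that restrains receptor and Erk signalling. Transcripts of genes raised in this way are commonly used together as a measure of Fgf signalling.

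The promoters of Spry2 and Dusp6 are shown because these 2 genes had the highest levels per length of the 10 and were the only members lower in mutants in all 4 litters. In litter D the Dusp6 difference was only -0.0027 log2 CPM, and 13.5% of all genes tested were lower in all 4 litters. The windows hold 250 bases before and 50 after the annotated start (RefSeq, GRCm38.p6), at chr14:105896770-105897069 on the minus strand and chr10:99262981-99263280 on the plus strand. Capitals mark matches to CCGGAA, a core bound by Ets factors, or to AGGAAG, a site of the Etv subfamily, on either strand.
Spry2: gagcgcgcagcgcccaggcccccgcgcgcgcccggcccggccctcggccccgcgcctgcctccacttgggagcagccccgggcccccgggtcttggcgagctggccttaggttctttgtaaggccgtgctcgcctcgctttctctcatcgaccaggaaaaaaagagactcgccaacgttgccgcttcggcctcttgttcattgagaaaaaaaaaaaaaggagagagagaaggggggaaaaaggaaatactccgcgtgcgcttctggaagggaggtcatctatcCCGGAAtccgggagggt
Dusp6: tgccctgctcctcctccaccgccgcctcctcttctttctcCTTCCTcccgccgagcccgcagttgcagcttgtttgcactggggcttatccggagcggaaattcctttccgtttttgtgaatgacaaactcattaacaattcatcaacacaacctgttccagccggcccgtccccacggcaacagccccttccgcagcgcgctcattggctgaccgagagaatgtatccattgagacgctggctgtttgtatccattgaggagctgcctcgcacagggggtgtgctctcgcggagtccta
The Spry2 window held 1 CCGGAA at base 284, and the Dusp6 window held 1 AGGAAG, read on the other strand as CTTCCT, at base 41. Of 32851 promoter windows of the same length, 14.9% held CCGGAA and 35.4% held AGGAAG on either strand. Neither window held the cAMP response element TGACGTCA (1.79% of windows) or TATAAA (13.6%). Of the 10 genes, 8 had a promoter in the table. AGGAAG on either strand was also in windows of Spred2, Etv1 and Etv5, which were not lower in mutants in all 4 litters.

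Control libraries held 14777833 to 19733288 counts and mutant libraries 14721181 to 17034741, and the members had 53 to 6868 reads per library. Gmnn itself was 179.6 ± 40.2 CPM among controls (SD, n = 5; CPM are counts scaled to a common library size) against 115.3 ± 16.1 CPM among mutants (SD, n = 6), and its ranges did not overlap. The limb mesenchyme marker Prrx1 stood at 199 to 313 CPM and the forelimb marker Tbx5 at 64.8 to 123 CPM. The hindlimb markers Tbx4 and Pitx1 reached 6.11 and 4.07 CPM in controls, and 2.58 and 0.595 CPM in mutants. In bulk tissue, fewer cells of a type and less RNA per cell cannot be told apart. Nothing in the labels says whether an embryo's buds were pooled, and p-values measure the spread between these embryos.

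Spry2 fell in mutants and was the only one of the 10 to pass the test. Spry2 is the Sprouty family member most strongly expressed here, an inhibitor of receptor tyrosine kinase signalling (chromosome 14, 105891947 to 105896819, minus strand, mm10). In controls 1 to 5 it stood at 224, 132, 277, 210 and 64.5 CPM, and in mutants 1 to 6 at 60.3, 35.3, 45.2, 48.9, 127 and 61.6 CPM. Controls 1 to 4 all lay above every mutant, and control 5 lay among the mutants, below mutant 5. The mean level was 181.4 ± 83.4 CPM among controls (SD, n = 5) against 63.1 ± 32.9 CPM among mutants (SD, n = 6). The log2 fold change was -1.39 (SE 0.26, 95% interval -1.96 to -0.83, adjusted p 0.039 in edgeR's quasi-likelihood test, blocked by litter), or 0.381 of the control level. Of all 15821 genes tested, 63 had a lower log2 fold change.

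**Figure D1:**
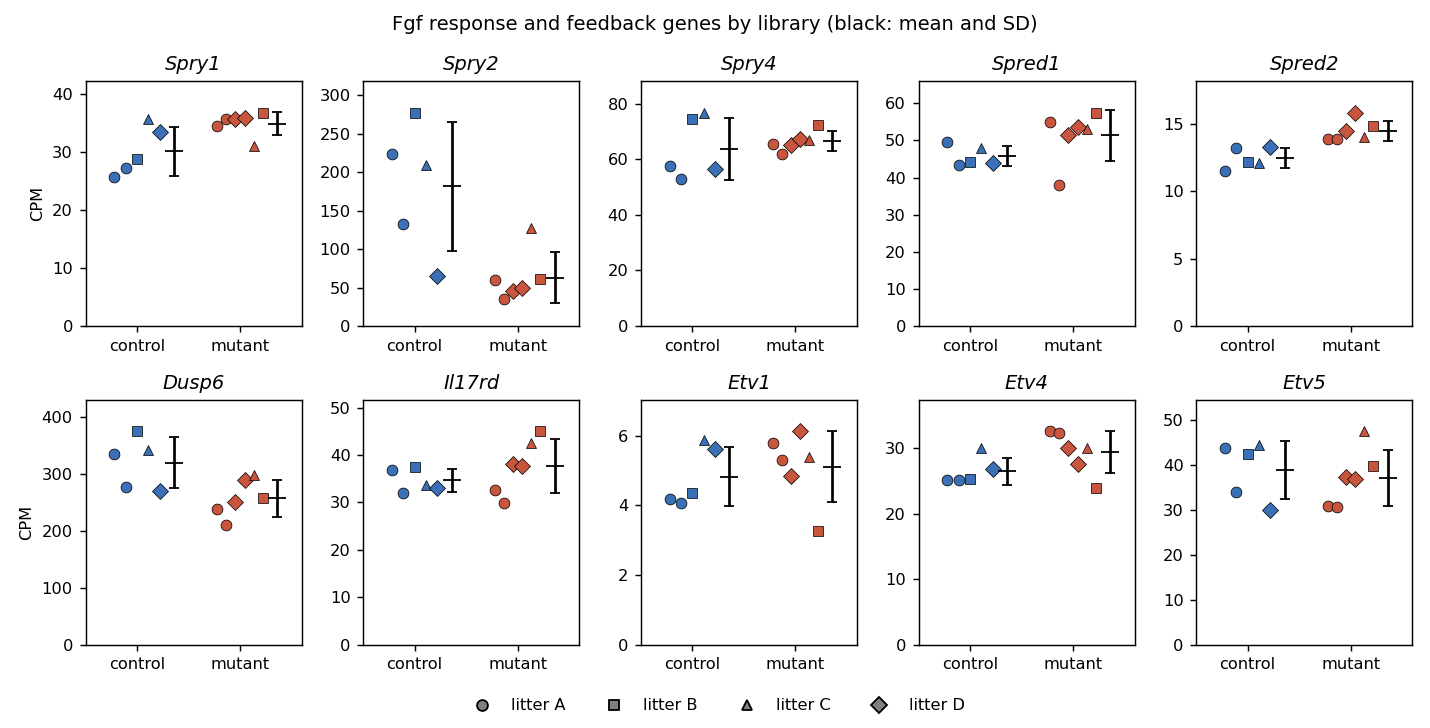
Level of each of the 10 genes in CPM (vertical axis from 0) in every control (blue) and mutant (red) library, with marker shapes for litters and black bars for the mean and SD. Spry2 is at 132 CPM or more in controls 1 to 4 and at 127 CPM or less in control 5 and all mutants, while most other genes overlap between groups.

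The call for Spry2 rested on the set of libraries. It held in 2 of 11 fits that left out 1 library. These were without control 5 (log2 fold change -1.67, adjusted p 0.0179) and without mutant 2 (-1.21 and 0.0352). In the other 9 the adjusted p was up to 0.179. Litters B and C were single pairs, and control 5 was the only control of litter D. With litter as a block, leaving out any of these libraries takes its whole litter out of the genotype contrast. Without all of litter D the log2 fold change was likewise -1.67 (adjusted p 0.0419). Without litter B it was -1.2 and without litter C -1.56 (adjusted p 0.164 and 0.0556). Without litter as a block the adjusted p was 0.0541. The sign was negative in all of these fits.

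Dusp6, the phosphatase that inactivates Erk, was the other member with a negative difference in every litter, by a smaller amount. In litter D the difference was only -0.0027 log2 CPM, practically level. Of all genes tested, 13.5% were lower in mutants in all 4 litters. Dusp6 stood at 334, 276, 374, 342 and 270 CPM in controls 1 to 5 and at 238, 209, 251, 289, 297 and 258 CPM in mutants 1 to 6. The 3 highest libraries were controls 1, 3 and 4, and controls 2 and 5 lay within the range of the mutants. The mean level was 319.3 ± 45.0 CPM among controls (SD, n = 5) against 256.9 ± 32.8 CPM among mutants (SD, n = 6), with a log2 fold change of -0.31 (SE 0.09, 95% interval -0.52 to -0.11). This did not pass the threshold over all genes (edgeR adjusted p 0.0918). Without control 5 the log2 fold change was -0.41 with an edgeR adjusted p of 0.0344, and DESeq2 gave -0.31 with an adjusted p of 0.0233. Litter D then has no control, and without all of litter D it was -0.41 with an edgeR adjusted p of 0.0609. In the other 10 fits that left out 1 library Dusp6 did not pass, with an adjusted p of up to 0.308.

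The other Sproutys did not follow Spry2. Spry1 (chromosome 3, 37639947 to 37644598) had 25.6 to 35.6 CPM in controls and 31.0 to 36.7 CPM in mutants, with medians of 28.8 and 35.6 CPM. The log2 fold change was 0.21 (95% interval 0.000173 to 0.41, edgeR adjusted p 0.234), and the mutant mean was higher in litters A, B and D and lower in litter C. A predicted gene on the other strand covers 24.4% of the exon bases of Spry1 in GENCODE M21, and counting ignored strand, so its value is uncertain. Under its own name that gene had 7 reads over all libraries, and reads over shared bases went to neither gene where the 2 also overlap in M9. Spry4 had 53.0 to 76.7 CPM in controls and 61.8 to 72.5 CPM in mutants, so that the mutants lay inside the control range. Its log2 fold change was 0.09 (95% interval -0.08 to 0.26, edgeR adjusted p 0.555).

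Spred1 and Spred2, relatives of the Sproutys that block activation of Raf, were near or slightly above their control levels. Spred2 had 11.5, 13.2, 12.2, 12.1 and 13.3 CPM in controls 1 to 5 and 13.9, 13.9, 14.5, 15.8, 14 and 14.8 CPM in mutants 1 to 6. Every mutant lay above every control, and Spred2 was the only member whose groups did not overlap. Of all genes tested, 2.59% had no overlap, 1.29% with mutants higher and 1.3% with mutants lower. The size was small, a log2 fold change of 0.20 (95% interval 0.000328 to 0.41), and it did not pass over all genes (edgeR adjusted p 0.234). Spred1 had 43.3 to 49.5 CPM in controls and 38 to 57.4 CPM in mutants. Mutant 2 was the lowest library and the other 5 mutants were above the highest control. The log2 fold change of Spred1 was 0.16 (95% interval -0.06 to 0.38, edgeR adjusted p 0.388).

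Il17rd had 32.1 to 37.6 CPM in controls and 29.9 to 45.0 CPM in mutants. Mutants 1 and 2 of litter A were close to or below the lowest controls, and mutants 3 to 6 were above the highest control. The log2 fold change was 0.11 (95% interval -0.09 to 0.31, edgeR adjusted p 0.537).

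The Ets factors Etv1, Etv4 and Etv5, which report the activating side of the pathway, did not pass the test in either direction. Etv4 was at 25.1, 25.2, 25.4, 30.0 and 26.8 CPM in controls 1 to 5 and at 32.6, 32.3, 30.0, 27.7, 30.1 and 24.0 CPM in mutants 1 to 6. The highest 2 libraries were mutants of litter A and the lowest was mutant 6, so the groups overlapped. Its log2 fold change was 0.15 (95% interval -0.04 to 0.34, edgeR adjusted p 0.350). Etv5 was at 43.8, 34.0, 42.5, 44.4 and 30.0 CPM in controls 1 to 5 and at 30.8, 30.6, 37.4, 36.9, 47.5 and 39.9 CPM in mutants 1 to 6. The lowest library was a control and the highest a mutant. Its log2 fold change was -0.05 (95% interval -0.29 to 0.18, edgeR adjusted p 0.820). Etv1 was the least abundant member, at 4.07 to 5.87 CPM in controls and 3.25 to 6.12 CPM in mutants, with a log2 fold change of 0.05 (95% interval -0.30 to 0.41, edgeR adjusted p 0.891).

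**Figure D2:**
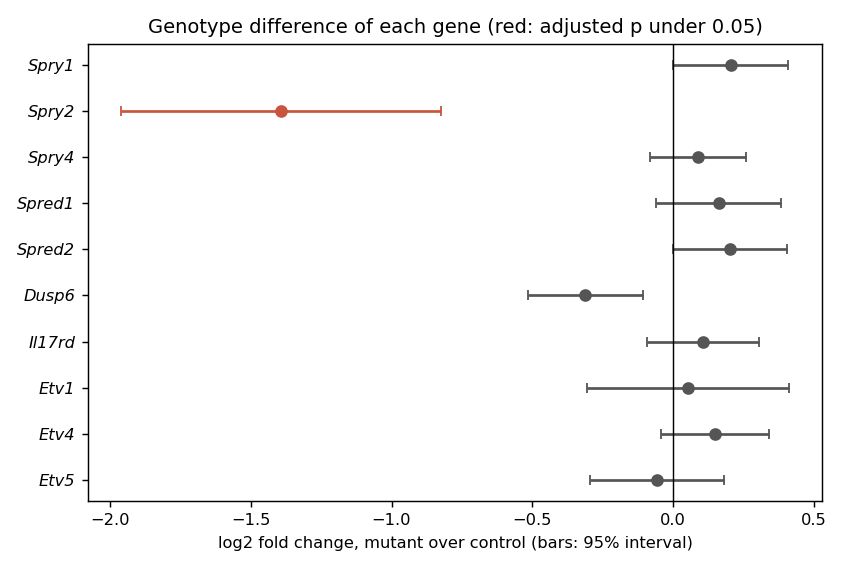
Log2 fold change of mutant over control for each gene (horizontal axis), with 95% intervals from the edgeR fit with litter as a block. Spry2 at -1.39 is the only gene past an adjusted p of 0.05 (red), Dusp6 is at -0.31, and the other 8 lie between -0.05 and 0.21.

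Counted together, 1 of the 10 genes passed the test and it was lower in mutants, where 2.18% of all 15821 genes passed, 1.48% as lower and 0.702% as higher. Without control 5, Spry2 and Dusp6 both passed as lower, where 3.54% of 15714 genes did. Spry2 and Spred2 then had groups that did not overlap, where 5.8% of genes were separated as lower and 4.65% as higher in mutants. Without all of litter D, only 1 of the 10 passed, Spry2. At an unadjusted p under 0.05 there were 2 lower members (Spry2 and Dusp6) and 2 higher (Spry1 and Spred2), where 21.4% of all genes had such a p. The median log2 fold change was 0.10 over the 10 genes and 0.11 over the 9 without Spry2, and 0.00382 over all genes tested. Of the 9 genes other than Spry2, 7 had a positive and 2 a negative fold change. None of their 95% intervals reached below -0.52, the lower bound for Dusp6, so that a fall of the size of Spry2 lay outside all 9.

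The difference between Spry2 and each other member was tested directly, as the log2 ratio of the 2 transcripts within a library. The test permuted genotype labels within litters, which gives 72 arrangements and a smallest p of 0.0139. The fall of Spry2 was known when the test was chosen. Relative to Spry4, Spry2 stood at a mean log2 ratio of 1.36 ± 0.71 (SD, n = 5) in controls and -0.20 ± 0.60 (SD, n = 6) in mutants, and these group means differ by -1.56. The difference tested was the genotype term of a linear model with litter, which was -1.46 for Spry4. Over the 9 references this litter-adjusted difference ran from -1.06 (Dusp6) to -1.57 (Spry1 and Spred2), and the plain difference of group means from -1.17 to -1.70. In all 9 the real labels gave the largest litter-adjusted difference of the 72 arrangements (exact two-sided permutation p 0.0139 each, 0.0139 after Benjamini-Hochberg adjustment over the 9). The ratios share the Spry2 values and are not independent of each other. All 9 were lower in mutants in 4 of 4 litters. Control 5 lay within the range of the mutants in each of the 9, with a log2 ratio to Dusp6 of -2.06 where mutants ran from -2.56 to -1.22.

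**Figure D3:**
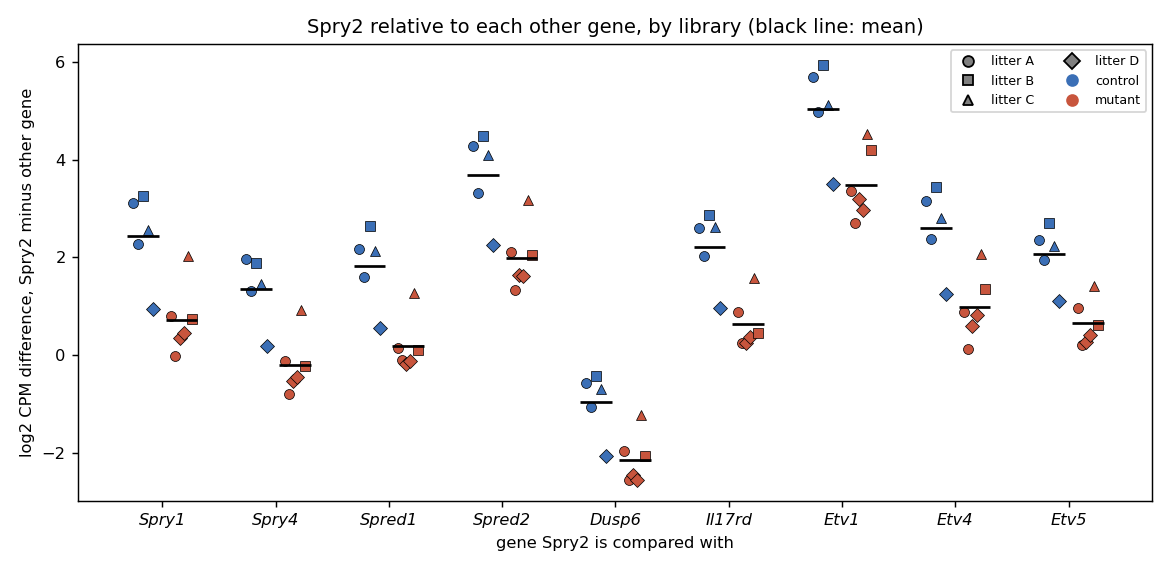
Log2 CPM of Spry2 minus that of each other gene (vertical axis) in every library, with controls in blue, mutants in red, marker shapes for litters and black lines for group means. The lines differ, mutant minus control, by -1.17 (Dusp6) to -1.70 (Spry1 and Spred2) on the log2 scale, and the control of litter D lies among the mutants.

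By litter, the Spry2 difference (mutant mean minus control mean, log2 CPM) was -1.89 in A, -2.17 in B, -0.72 in C and -0.46 in D. Dusp6 had -0.45, -0.54, -0.20 and -0.0027 in the same order, so that both genes differed most in litters A and B and least in D. Spred2 was the only member higher in all 4 litters (0.17 to 0.29), where 12.6% of all genes tested were, and 13.5% were lower in all 4. Etv5 went from -0.33 in A to 0.31 in D, and Etv4 from 0.37 in A to -0.08 in B. The genotype by litter interaction did not pass for any member or any gene tested (edgeR, 0 genes at an adjusted p under 0.05 and 605, or 3.82%, at an unadjusted p under 0.05). Spry2 had the smallest interaction p of the 10, with an unadjusted p of 0.0172 and an adjusted p of 0.95 on 3 residual degrees of freedom.

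**Figure D4:**
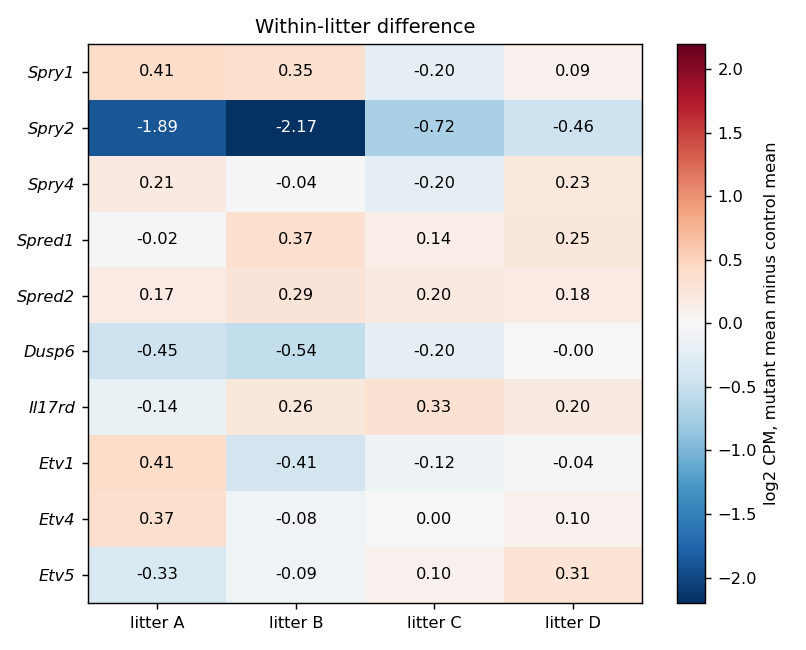
Mutant mean minus control mean in log2 CPM (colour and printed value) for each gene (rows) in each litter (columns). Spry2 is lower in all 4 litters, from -2.17 in litter B to -0.46 in litter D, and no other gene differs by more than 0.54 in any litter.

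Compared per length (RPKM, from the gene lengths in the table), Dusp6 and Spry2 were far above the other 8 in controls. Dusp6 was at 114 ± 16.1 and Spry2 at 87.0 ± 40 RPKM (SD, n = 5), and the ranges of these 2 overlapped. The next level was that of Spry4, Spry1, Etv5 and Etv4, at 13.9 ± 2.42, 10.4 ± 1.45, 9.49 ± 1.59 and 8.54 ± 0.676 RPKM, where the ranges of neighbours in this order overlapped over the 5 controls. Below them no ranges overlapped. Spred1 followed at 6.75 ± 0.402, Il17rd at 4.22 ± 0.294, Spred2 at 2.70 ± 0.169 and Etv1 at 0.818 ± 0.144 RPKM. In mutants Spry2 was at 30.3 ± 15.8 RPKM (SD, n = 6), between Dusp6 at 91.9 ± 11.7 and Spry4 at 14.5 ± 0.762. Spry2 thus kept its place as the second most abundant of the 10 per length in both groups.

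A property of the transcripts moved with these values. The Spry2 mRNA holds a run of 38 consecutive T bases in its 3′ UTR, starting at base 1401 of a 2087-base transcript whose coding sequence ends at base 1228 (GENCODE M21). Dusp6 holds a run of 16 in its 3′ UTR, and the other members have runs of 4 to 12, apart from Etv1 with 18 in a non-coding transcript and up to 9 in its coding ones. Over all genes tested, the median log2 fold change was 0.06 for 4232 genes with runs up to 5 bases, -0.06 for 848 with 15 to 17 and -0.50 for 172 with 26 or more. In that last group, 2 of the 172, Spry2 included, had a fold change at or below that of Spry2, and in the group of Dusp6 139 of 848 had one at or below that of Dusp6.

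**Figure D5:**
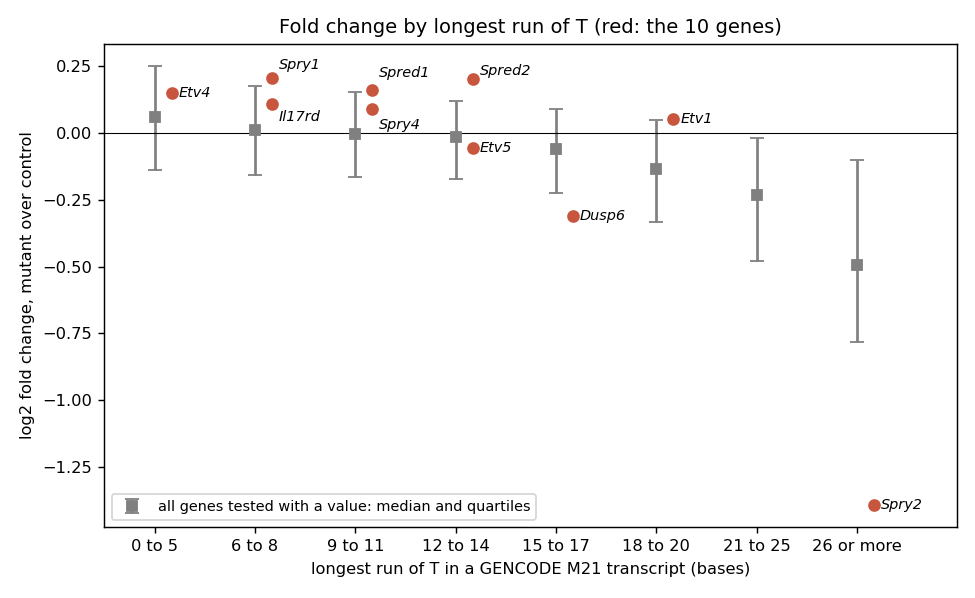
Log2 fold change of mutant over control against the longest run of T in a transcript (bases), with grey squares and bars for the median and quartiles of all genes tested in each class and red points for the 10 genes. The medians go from 0.06 to -0.50, and Spry2 at -1.39 lies below the lower quartile (-0.78) of the class of 26 or more.

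Libraries differed in the level of such transcripts as a whole. An index, the median log2 CPM relative to all libraries over genes with runs of at least 18, was 0.12 to 0.22 in controls 1 to 4, -0.08 in control 5, 0.08 in mutant 5 and between -0.27 and -0.05 in mutants 1 to 4 and 6. Control 5, low in Spry2 among controls, was also low in the index, and mutant 5, high in Spry2 among mutants, was also high. The mitochondrial share of counts set the same libraries apart. Controls 1 to 4 had at most 1.74%, a share that mutant 5 matched (1.74%). Control 5 had 2.01%, and every remaining mutant had at least 1.9%. The haemoglobin share did not divide them this way (control 2 at 3.3%, mutant 1 at 1.69%). The part of the mitochondrial share in the Spry2 result was not tested. The difference in the index by litter was -0.34, -0.24, -0.10 and -0.05 in A to D. With per-library offsets for run length, Spry2 had a log2 fold change of -0.92 (edgeR adjusted p 0.0319) and Dusp6 of -0.24 (0.119). With the index as a covariate, Spry2 had -0.32 (edgeR adjusted p 0.581) and Dusp6 -0.02 (0.967), and Spry1 had -0.02 in place of 0.21. The index moves with genotype in every litter, and its part in the Spry2 result cannot be told apart from genotype in the covariate fit.

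Over 6 lists of other genes of the pathway, 4 of 80 genes tested passed by edgeR, 1 higher and 3 lower, where 2.18% of all genes tested passed. At an unadjusted p under 0.05 there were 13 higher and 6 lower, where 21.4% of all genes had such a p. Of 7 Fgf ligands tested, 0 passed by edgeR in either direction, with 0 at an unadjusted p under 0.05 and a median log2 fold change of 0.09. Fgf10, the mesenchymal ligand, was at 21.8 ± 2.2 CPM among controls (SD, n = 5) against 24.4 ± 6.15 CPM among mutants (SD, n = 6). Fgf8, the main ligand of the ridge, was at 7.89 to 16.6 CPM in controls and 5.03 to 17.2 CPM in mutants, and Fgf9 at 1.79 to 10 and 0.940 to 6.75 CPM. The ranges of these 3 ligands overlapped between the groups.

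Of 9 receptors and membrane partners, 0 passed by edgeR, where 2.18% of all genes tested did. Their median log2 fold change was -0.11, with 6 negative and 3 positive. At an unadjusted p under 0.05 there was 1, where 21.4% of all genes had such a p. That gene was Flrt3, a membrane protein that binds Fgf receptors, at 144.2 ± 22.9 CPM among controls (SD, n = 5) against 113.3 ± 17 CPM among mutants (SD, n = 6) (edgeR adjusted p 0.0915). The heparan sulphate carriers Gpc3 and Sdc1 had log2 fold changes of -0.11 and -0.14 (edgeR adjusted p 0.603 and 0.577). The 4 Fgf receptors were named after their values were seen. Fgfr1, with the most reads of the 4, had 0.08 and Fgfr2 -0.08 (edgeR adjusted p 0.662 and 0.664). Fgfr3 had -0.59 and Fgfr4 -0.80 (edgeR adjusted p 0.242 and 0.287), at control means of 4.80 and 0.916 CPM. Both were lower in mutants in all 4 litters, as were Flrt3 and Fgfr2 (Fgfr2 by -0.0167 to -0.323 log2 CPM), where 13.5% of all genes tested were.

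In the Ras and Erk cascade, 2 of 24 genes fell and 0 rose, where 1.48% of all genes tested passed as lower, and the median log2 fold change of the 24 was 0.02. At an unadjusted p under 0.05, 5 of the 24 were higher and 3 lower, where 21.4% of all genes had such a p in either direction. Nras, a Ras GTPase, stood at 784 to 998 CPM in controls and 506 to 806 CPM in mutants (log2 fold change -0.48, SE 0.10, edgeR adjusted p 0.0406). The kinase gene Braf was at 48.5, 39.1, 47.1, 51.8 and 23.5 CPM in controls 1 to 5 and at 21.7 to 36.6 CPM in mutants (-0.60, SE 0.14, edgeR adjusted p 0.0495). As for Spry2, control 5 lay among the mutants and mutant 5 was the highest mutant for both Nras and Braf. Their longest T runs were 24 and 22 bases.

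Among 11 other feedback inhibitors and 14 immediate early genes, 0 passed by edgeR, where 2.18% of all genes tested did. At an unadjusted p under 0.05 there were 1 and 2, where 21.4% of all genes had such a p. The median log2 fold changes were 0.15 and 0.19. Of 15 limb genes that depend on Fgf or restrain it, 1 rose and 1 fell, with a median of 0.18, where 0.702% and 1.48% of all genes tested passed in those directions. At an unadjusted p under 0.05, 6 of these 15 were higher and 1 lower, against 21.4% of all genes in either direction. Ccnd1, which encodes cyclin D1, was at 61.9 to 74.2 CPM in controls and 70.7 to 98.7 CPM in mutants (log2 fold change 0.39, SE 0.09, edgeR adjusted p 0.0495), and only mutant 4 lay within the control range. The LIM homeodomain gene Lhx9 was at 205 to 280 CPM in controls and 140 to 204 CPM in mutants (-0.50, SE 0.10, edgeR adjusted p 0.0406), and its longest T run was 15 bases.

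Markers of other cells in the bud were summed per library to set beside Spry2. The 13 ridge and surface ectoderm markers summed to 255 to 507 CPM in controls and 318 to 433 CPM in mutants. Of the 12 tested, 0 passed by edgeR, where 2.18% of all genes tested did. Endothelial markers summed to 136 to 210 and 111 to 187 CPM, and muscle precursor markers to 50.1 to 79.1 and 48.6 to 87.9 CPM. Of 6 and 4 tested, 0 passed, against the same 2.18%. Red cell markers summed to 10200 to 25100 CPM in controls and 12200 to 42700 CPM in mutants. Hindlimb markers summed to 3.47 to 18.6 CPM in controls and 2.69 to 6.07 CPM in mutants. For somite and trunk markers the sums were 41.8 to 101 and 36.6 to 72.2 CPM. In both of these lists 0 passed, of 2 hindlimb and 4 somite and trunk markers tested, against the same 2.18%. The defining neural tube markers Sox1 and Olig2 had at most 1 and 0 reads in any library. Of 10 forelimb mesenchyme markers, 2 passed as lower, where 1.48% of all genes tested did, and their sum was 1020 to 1200 CPM in controls and 905 to 1090 CPM in mutants. Of 4 contractile muscle markers, 3 passed as lower against the same 1.48%, with sums of 3.89 to 72.0 CPM in controls, the highest in control 5, and 2.79 to 9.43 CPM in mutants. The part of any of these marker lists in the Spry2 result was not tested.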

How the data were processed

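The deposited table holds raw counts of reads for each gene name. The authors made it with featureCounts 1.4.6-p4 on mm10 and GENCODE M9, per the file headers, with a mapping quality of at least 10 and no option for strand, read pairs or overlapping genes. STAR 2.5.4b is named in the submitters' processing notes. The header command lists 12 alignment files, and the table has 11 sample columns. Gene lengths in bases come from the same deposited table (unit: other).

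Counts were analysed with edgeR 4.0.16 in R 4.3.3: filterByExpr (15821 genes, 99.9% of the counts), TMM scaling, and the quasi-likelihood F test on litter and genotype, two-sided, adjusted by Benjamini-Hochberg over all genes tested, and called under 0.05. CPM use TMM-scaled totals, and log2 CPM a prior count of 2. Intervals are the fold change ± the SE times the 95% t quantile of the same fit. Litters come from the sample titles, and the series' design text says that embryos were matched by litter. Deviations from group means correlated at -0.16 to 0.37 (median 0.13) over 8 library pairs of the same litter and at -0.33 to 0.17 (median -0.02) over 22 pairs of different litters. No 2 libraries of a group were alike to within sampling noise (over 25 pairs, chi-square per degree of freedom was at least 7.04). T runs were read from GENCODE M21 transcripts, the same genome build, for 96.7% of the genes tested. On simulated counts for 15821 genes with this design, 97 of 100 genes changed by 1 log2 unit and 99 of 100 changed by 2 were called, with 9 false calls. The simulation held no litter effect and no shift shared by many genes of a library. It tried no smaller changes, so it does not measure recovery at the sizes seen for the members other than Spry2.

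The 10 genes, the pathway and marker lists and the tests were chosen with earlier results of these data known, so that the fall of Spry2 is no independent support. Genes named are the 10, Gmnn, list genes past the threshold (up to 4 a list), the 3 ligands and 3 receptor-list genes with the highest CPM, and defining markers. The 4 Fgf receptors were added after their values were seen. Alternatives were RLE and upper-quartile scaling, other filters on low counts, DESeq2 1.42.0, limma-voom 3.58.1, no litter block, each library and litter left out, abundant RNA removed, and 3 treatments of T runs.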

Additional observations from a re-analysis of the deposited data

Results flagged for a closer look

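Within each genotype, the highest and lowest library was set against the spread of the others for the 10 genes, the 9 Spry2 ratios and the T-run index, 80 comparisons in all. Dixon's test set a library apart in 3 of them, and about 2 would be set apart by chance. Spred1 was at 5.254 log2 CPM in mutant 2, the lowest mutant, with the next at 5.689. Etv1 was at 1.754 log2 CPM in mutant 6, with the next mutant at 2.31. The log2 ratio of Spry2 to Spred1 was 1.263 in mutant 5, with the next mutant at 0.1345.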

How the results depend on the processing

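The number of genes called over the whole table, 345, moved to 550 when 1 CPM was required in at least 5 libraries, 1194 with DESeq2, 1566 without a filter, 16 with no replicate block, 102 without genes of T runs of 15 or more, 2 with the T-run index, and 9, 3, 1 and 148 without litters A, B, C and D, with a range of 1 to 850 when 1 library was left out. The number of the 10 genes called, 1 in the report, was 2 with DESeq2 and without a filter (Spry2 and Dusp6), 0 with no replicate block, with the T-run index, without genes of T runs of 15 or more (which removes Spry2, Dusp6 and Etv1) and without litter A, B or C, and 0 to 2 when 1 library was left out. Several alternatives repeat each other, because leaving out control 5 or either library of litter B or C takes that litter out of the blocked contrast. Spry2 kept its sign in all 25 alternatives with a value. It did not pass with no replicate block (-1.52), without litters A, B and C (-1.06, -1.20 and -1.56) or with the T-run index (-0.32), and ran from -1.67 to -1.19 when 1 library was left out. Dusp6 passed with DESeq2 (-0.31), without a filter (-0.32) and without control 5 (-0.41), but not without litter D (-0.41). It ran from -0.41 to -0.25 when 1 library was left out. The sign reversed for Etv1 with the T-run index (-0.10), without litter A (-0.17), without control 2 (-0.0103) and without mutant 1 (-0.0134), with a range of -0.0134 to 0.16 when 1 library was left out. It reversed for Etv5 with the index (0.29), without litter A (0.12) and without control 1 (0.0427), with a range of -0.17 to 0.0427, and for Spry1 with the index (-0.0226). None of these had passed. All 9 Spry2 ratios stayed negative in their 16 alternatives, which were raw counts and each library or litter left out. The T-run treatments were not applied to the ratios, so their part in these differences was not tested. Without control 5, litter A or litter D the arrangements are too few to reach 0.05, and no p is given. The Spry2 interaction passed without the filter on low counts (F 23.6, adjusted p 2.91e-12 by edgeR). The cause was not tested for any of these. Etv1, at 53 to 103 reads per library, is the member whose precision is most limited by depth.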
